A study of Mus musculus with 26 samples.

Results

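Long-range loops that carried several sequencing tags were taken from the RNA polymerase II HiChIP loop lists of mouse E14 cells. A loop was included when its anchor centres lay at least 500 kb apart and the authors' tag count for it was 4 to 9. The rule took 1372 of 632860 loops. Of these, 786 of 143451 came from the WT-labelled list and 586 of 489409 from the KO-labelled list. Distances ran from 500.14 kb to 1995 kb in the WT-labelled list and from 500.11 kb to 1987 kb in the KO-labelled list. Most did not reach the megabase: 208 of the 786 WT-labelled loops and 67 of the 586 KO-labelled loops spanned 1 Mb or more. The loops were chosen by 2 measured values, distance and tag number, so those are given as description and carry no test.

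E14 is a mouse embryonic stem cell line derived from a blastocyst. Per the labels' protocols it was grown on gelatin in medium with fetal serum, LIF, the MEK inhibitor PD0325901 and the GSK3 inhibitor CHIR99021. The groups used here are cells labelled NPC (neural progenitor cells) after 12 days of neural induction, either WT-labelled or labelled as a Klf4 knockout (KO), with 2 biological replicates per genotype and assay. RNA-seq was deposited per replicate, whereas each genotype has a single HiChIP loop list, so loops have no replicate spread. The labels do not say whether the knockout is 1 clone, and the ESC ChIP-seq samples were not analysed here.

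HiChIP joins DNA ends that lie close together in fixed nuclei and then enriches the joined fragments with an antibody, here against RNA polymerase II. A loop is a pair of anchors, which are stretches of chromatin enriched for polymerase, and its tags are read pairs with 1 end in each anchor. Most polymerase contacts join a promoter to an enhancer or promoter nearby, within the domains that cohesin and CTCF form. Pairs far apart are usually covered by single tags, and known examples of long contacts include histone gene clusters and groups of highly transcribed genes.

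Of 1193 microRNA genes, 59 lay at these anchors (4.95%, against 3.45% of all RefSeq genes). MicroRNA genes in clusters share anchors, so the 59 are not a count of independent loops. Products of a few, chosen after their values were seen, are shown because the cells that express them are well known. A microRNA pairs with its targets through its seed, bases 2 to 8 from the 5′ end, shown here in capitals. The anchor chr7:3196130-3221968 (mm10, RefSeq annotation of GRCm38.p6) holds the miR-290 to miR-295 cluster, the main microRNAs of mouse ESCs. It had 3 of these loops in the WT-labelled list, with 13 tags, and none in the KO-labelled list. Its 3p products share the seed AAGUGCU in 3 of the 4 sequences shown, from RefSeq's table:
miR-291a-3p: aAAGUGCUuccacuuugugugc
miR-294-3p: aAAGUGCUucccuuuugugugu
miR-295-3p: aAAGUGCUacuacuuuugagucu
miR-290a-3p: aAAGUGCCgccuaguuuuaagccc
The same RefSeq table gives the products of loci that had such loops in the other list, or that belong to an epithelial family. All 3 loci that encode miR-9, a microRNA of neural progenitors and neurons, lay at KO-labelled loops only. They are Mir9-1, Mir9-2 and Mir9-3, and their mature miR-9-5p is the same sequence. Mir219a-1, whose product is known from oligodendrocytes, also lay at KO-labelled loops only, while Mir141 and Mir200c of the epithelial miR-200 family lay at 1 WT-labelled loop.
miR-9-5p: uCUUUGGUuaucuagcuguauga
miR-219a-5p: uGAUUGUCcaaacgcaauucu
miR-141-3p: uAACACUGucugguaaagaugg
miR-200c-3p: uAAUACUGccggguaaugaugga

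The replication-dependent histone genes, whose products package newly made DNA, lay at the ends of the loops found in both lists more than once. A WT-labelled loop of 6 tags joined an anchor with H2bc12 to an anchor with H2bc8 over 1535 kb. The KO-labelled loop that overlapped it at both anchors had 4 tags over 1531 kb, and held H2bc11 and H4c9 but not H2bc12 at 1 end and H2bc8 at the other. The promoters of H2bc12 and H2bc8 hold the octamer ATTTGCAT, shown in capitals, which is the known binding sequence of OCT factors in histone H2B promoters. These are the 300 bases from 250 before to 50 after each start, from RefSeq on GRCm38.p6, written 5′ to 3′ on the gene's strand, chr13:22035571-22035870 (+) for H2bc12 and chr13:23571150-23571449 (+) for H2bc8.
H2bc12: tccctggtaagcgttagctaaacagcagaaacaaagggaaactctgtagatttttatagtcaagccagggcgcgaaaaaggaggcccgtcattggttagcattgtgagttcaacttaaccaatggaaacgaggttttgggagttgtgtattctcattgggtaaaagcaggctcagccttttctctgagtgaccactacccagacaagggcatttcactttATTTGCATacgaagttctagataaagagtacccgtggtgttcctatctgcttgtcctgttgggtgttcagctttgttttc
H2bc8: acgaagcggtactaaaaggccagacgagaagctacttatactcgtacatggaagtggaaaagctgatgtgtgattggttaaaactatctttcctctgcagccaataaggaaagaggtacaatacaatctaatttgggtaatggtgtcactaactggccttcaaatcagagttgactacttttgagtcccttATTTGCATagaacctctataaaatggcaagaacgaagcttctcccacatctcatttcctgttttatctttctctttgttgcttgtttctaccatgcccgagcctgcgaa
The octamer, searched on both strands, was in a promoter of 8 of 38 histone genes at these anchors (21.1%). Over all genes with a known promoter it was in a promoter of 532 of 27025 (1.97%). The 8 genes were H2ac12, H2ac4, H2ac6, H2ac8, H2bc12, H2bc3, H2bc6 and H2bc8. Neighbouring H2A and H2B genes are read in opposite directions and can share a promoter, so some of these windows overlap. A match describes the letters only.

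Some long loops joined near-identical copies of a sequence, which bears on how their tags could be assigned. The loop of 8 tags between Rnaset2b and Rnaset2a, 1168 kb apart in the WT-labelled list, joined 2 copies of a gene for a secreted ribonuclease. The KO-labelled list held the same contact with 22 tags over 1169 kb, above the limit of 9. Their promoters, from RefSeq on GRCm38.p6 at chr17:8147738-8148037 (-) and chr17:6978610-6978909 (+), share an identical run of 153 bases, shown in capitals.
Rnaset2a: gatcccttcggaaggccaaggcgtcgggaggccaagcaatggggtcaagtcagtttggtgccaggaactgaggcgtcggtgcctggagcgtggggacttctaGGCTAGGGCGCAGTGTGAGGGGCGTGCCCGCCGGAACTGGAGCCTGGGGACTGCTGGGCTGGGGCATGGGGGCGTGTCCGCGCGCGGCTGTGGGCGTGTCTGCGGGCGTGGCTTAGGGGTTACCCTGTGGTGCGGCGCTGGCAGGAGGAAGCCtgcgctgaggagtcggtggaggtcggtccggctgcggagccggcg
Rnaset2b: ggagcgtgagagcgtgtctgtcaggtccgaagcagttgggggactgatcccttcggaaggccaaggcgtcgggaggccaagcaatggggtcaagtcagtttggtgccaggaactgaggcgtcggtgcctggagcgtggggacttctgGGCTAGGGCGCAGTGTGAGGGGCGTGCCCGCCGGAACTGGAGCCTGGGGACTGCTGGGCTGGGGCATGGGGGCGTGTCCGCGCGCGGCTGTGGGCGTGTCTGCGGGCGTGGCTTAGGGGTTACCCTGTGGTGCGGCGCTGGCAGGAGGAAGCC
Promoters were known at both ends of 179 WT-labelled and 154 KO-labelled loops of 4 to 9 tags. An identical run of 30 bases or more linked the ends in 4 (2.23%) and 3 (1.95%) of them. Among loops of 10 tags or more at the same distances, the run was present in 5 of 21 (23.8%) and 1 of 6 (16.7%). The longest runs after Rnaset2 in the WT-labelled set were 87 bases between Gm17353 and Zfp640 and 62 bases between Gm10406 and Gm38418. In the KO-labelled set, Tagap1 and Cep43 shared 248 bases. Reads from such copies can be placed at either one, and the part this plays in those loops was not tested.

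Most of the loops lay at the shorter distances in both lists. The median distance was 721 kb (quartiles 591 and 1029 kb) in the WT-labelled list and 632 kb (quartiles 551.5 and 778 kb) in the KO-labelled list. In bins of 250 kb from 500 kb to 2000 kb, the WT-labelled list held 423, 155, 88, 45, 53 and 22 loops. The KO-labelled list held 416, 103, 38, 12, 11 and 6. The WT-labelled number rose once, between 1500 and 1750 kb. Loops of 1 Mb or more were 26.5% of the WT-labelled and 11.4% of the KO-labelled set. Counted per 1000 loops of the same distance, 27.8 WT-labelled and 8.00 KO-labelled loops had 4 to 9 tags between 500 and 750 kb, and 6.90 and 0.741 did between 1750 and 2000 kb. In between, these rates rose in both lists from the bin at 1250 to 1500 kb (9.20 and 0.917) to the next (13.3 and 1.10). The KO-labelled rise rests on only 12 and 11 loops. Loops between histone genes on chromosome 13 lay in the later bin in both lists, so the rise is not read as a trend with distance.

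**Figure D1:**
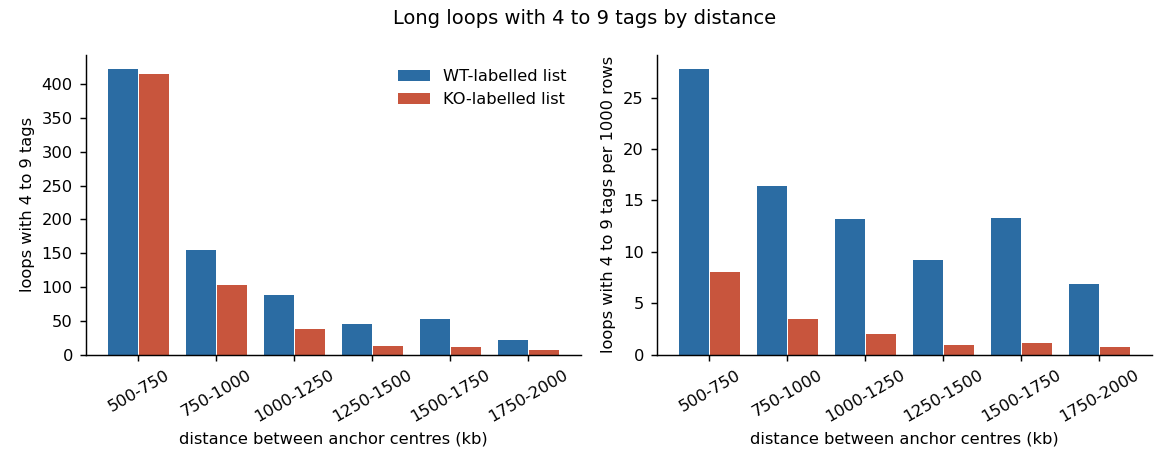
Loops of 4 to 9 tags by distance between anchor centres, in bins of 250 kb; the left panel gives their number and the right panel their number per 1000 loops of any tag count in the same bin, for each deposited list. The lists hold 423 and 416 such loops in the nearest bin and 22 and 6 in the farthest, and the WT-labelled bars are taller in every bin of the right panel.

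The lists differed in their total of tags, and 1 list per genotype gives no way to tell this from genotype. These totals count tags of the listed loops, and sequencing depth was not compared. The WT-labelled list held 407150 tags and the KO-labelled list 977208, or 2.4 times as many. Loops of 4 to 9 tags made up 1.81% of the 43395 WT-labelled loops beyond 500 kb and 0.444% of the 131941 KO-labelled ones, and single tags made up 83.7% and 90.2%. Their tags made up 0.962% and 0.277% of each list's tags. At the edges of the rule, 1180 WT-labelled and 1690 KO-labelled loops beyond 500 kb had 3 tags, 407 and 374 had 4, 31 and 4 had 9, and 12 and 8 had 10. With 4 to 9 tags, 30 and 38 loops lay between 490 and 500 kb, and again 30 and 38 between 500 and 510 kb.

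Anchors of these loops were wide and often sat on promoters. The median anchor width was 7.84 kb in the WT-labelled and 7.27 kb in the KO-labelled set, against 3.00 and 2.79 kb over all anchors of each list. Anchors of loops of 4 to 9 tags under 500 kb had medians of 3.53 and 3.24 kb, and those of 10 or more tags beyond 500 kb 10.79 and 6.357 kb. A RefSeq start site lay within 2500 bases of 60.5% of the 1077 WT-labelled anchors and of 58.4% of the 859 KO-labelled ones, and of 53.1% and 38.2% of all anchors. The shares were 55.47% and 42.77% for the short loops of 4 to 9 tags, and 64.44% and 63.83% for the long loops of 10 or more tags. Wider anchors meet more start sites, and these shares were not corrected for width. Both ends had a start site in 347 WT-labelled and 217 KO-labelled loops, 1 end in 309 and 272, and neither in 130 and 97. Each anchor served a median of 25 and 52 loops of any kind, against 9 and 16 over all anchors. For long loops of 10 or more tags the medians were 22 and 41. These traits are thus not called particular to the loops of 4 to 9 tags.

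Chromosomes 2 and 11 carried the most loops in both lists. Chromosome 2 held 93 of the WT-labelled loops (11.8%, against 10.0% of all loops beyond 500 kb) and 106 of the KO-labelled ones (18.1%, against 9.70%). Chromosome 11 held 97 (12.3%, against 11.8%) and 67 (11.4%, against 10.2%), shares near those of all long loops. Chromosome 1 held 67 WT-labelled (8.52%, against 4.88%) and 15 KO-labelled loops (2.56%, against 5.80%), and the X chromosome held 2 and 0.

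Under the rule used here, a minority of the loops were the same in both lists. A loop was called matched when the other list held a loop, of any tag count, that overlapped it at both anchors by 1 base or more. The share matched was 27.2% of the WT-labelled loops (95% Clopper-Pearson interval 24.1 to 30.5, 214 of 786) and 19.1% of the KO-labelled ones (16.0 to 22.5, 112 of 586). These intervals cover counting error only. The shares moved with the rule, to 48.4% and 31.6% with anchors widened by 10 kb and to 3.05% and 8.02% when 50% of each anchor had to be covered. At 1 Mb or more they were 20.2% and 35.8%, so the order of the lists turned there and under the coverage rule. Loops of 4 to 9 tags under 500 kb matched at 38.1% (of 16056) and 17.3% (of 41952). Anchors were called separately in each list, and both anchors were found in the other list for 52.7% and 35.7% of the long loops. Of those, 51.7% (46.8 to 56.6) and 53.6% (46.6 to 60.5) were matched. The same shares for the short loops were 85.2% (84.3 to 86.0) and 81.3% (80.5 to 82.1), and for single-tag loops beyond 500 kb 21.3% and 19.3%. The match was usually weak, since 134 of the 214 matched WT-labelled loops and 59 of the 112 KO-labelled ones met only a single-tag loop.

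**Figure D2:**
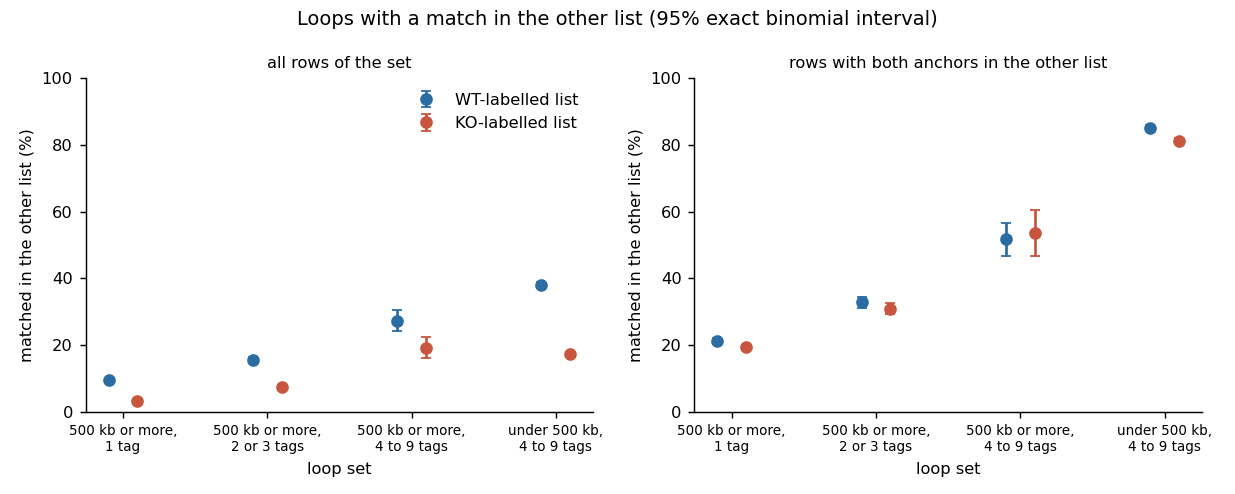
Percent of loops with a match in the other list, for 4 sets of loops by distance and tag number; points are shares and bars are 95% Clopper-Pearson intervals, which cover counting error only. In the right panel, limited to loops whose anchors both occur in the other list, the long loops of 4 to 9 tags sit at 51.7% and 53.6%, between single-tag loops beyond 500 kb and loops of 4 to 9 tags under 500 kb.

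Loops of 4 to 9 tags met each other across the lists in 16 pairs, made of 15 WT-labelled and 16 KO-labelled loops. The pair with the most tags joined Bcl6, a transcriptional repressor, at chr16:23986346-23990881 to the long noncoding RNA gene A230028O05Rik at chr16:25056890-25068146. It had 9 WT-labelled tags over 1074 kb and 6 KO-labelled tags over 1073 kb. Another 6 pairs joined histone genes on chromosome 13, with 4 to 7 tags in either list, over 1491 to 1967 kb. The widest of these ran from H1f5, H2ac22, H2bc22 and H3c11 to a block with H2ac4, H2bc3, H3c2 and H3c3, with 6 WT-labelled and 5 KO-labelled tags. The wider WT-labelled anchor there also held H1f1, H1f2 and H3c1, and the KO-labelled one did not. On chromosome 17, Hmga1, which encodes an architectural chromatin protein, met Tcp11 with 7 and 5 tags over 526.6 and 523.7 kb, and an anchor over the Ggnbp1 body in the WT-labelled list, and beside it in the KO-labelled list, with 5 and 5 tags. Vdac1, a channel of the outer mitochondrial membrane, met the chaperone gene Hspa4 with 4 and 5 tags over 937.7 and 940.5 kb. Further pairs lay at Rps10, at Lpp, at 1700025H01Rik, and at unnamed gene models on chromosomes 12 and 14. Hmga1 has processed copies elsewhere in the genome, and histone genes of the same class are similar to each other. Between the ends of the histone pairs, the longest identical promoter runs were 10 to 23 bases. The part that copies play in these pairs was not tested.

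The loops gathered at a limited number of places, and few of the merged places held such loops of both lists. Anchors within 10 kb were merged into 1639 regions, of which 966 had a WT-labelled loop, 777 a KO-labelled loop and 104 both. The shared regions were 10.8% of the WT-labelled and 13.4% of the KO-labelled ones. Counting loops of any kind, both anchors were found in the other list for 52.7% and 35.7% of these loops. For single-tag loops beyond 500 kb the shares were 43.95% and 16.21%. A cut at 4 to 9 tags in lists of unequal tag totals can drop a place from 1 list. The low overlap is therefore not read as a difference in places. At 54 regions, 5 or more loops of 1 list met. Regions linked by loops formed 486 networks, of which 226 held WT-labelled loops only, 202 KO-labelled loops only and 58 both. The 26 networks of 10 or more loops took 36.2% of all loops, and 9 of those 26 came from a single list. The largest spanned chr2:163047141-170347358, with 39 WT-labelled and 47 KO-labelled loops, around Ncoa3, Sulf2, Zmynd8, Prex1 and Sall4.

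**Figure D3:**
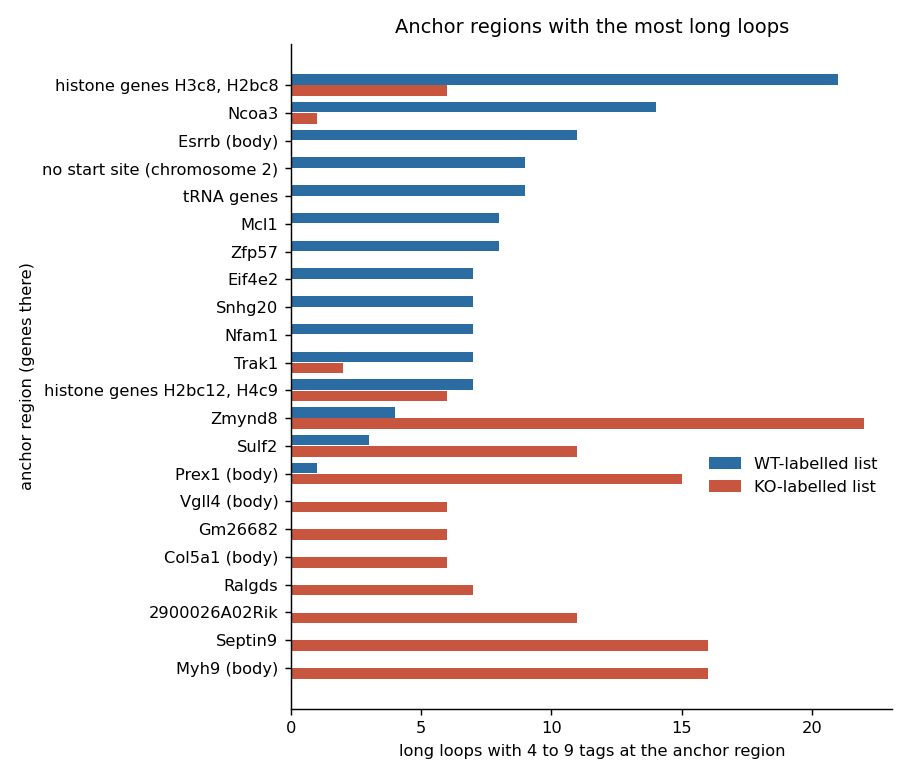
Number of long loops with 4 to 9 tags at the anchor regions that carry the most of them, 1 row per region named by genes with a start site there, by the gene body over it, or by chromosome; blue bars count the WT-labelled and orange bars the KO-labelled list. Ncoa3 has 14 and 1, the Esrrb body 11 and 0, Zmynd8 4 and 22, and Myh9 and Septin9 have 0 and 16 each.

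In the WT-labelled list the busiest single gene was Ncoa3, a nuclear receptor coactivator that works with Esrrb in ESCs. Its region chr2:165962991-165994545 had 14 WT-labelled loops with 86 tags and 1 KO-labelled loop with 5. They reached Ctsa and Zswim1 (1153 kb, 9 tags), the body of Arfgef2 (910.8 kb, 9 tags), Znfx1 and the snoRNA host gene Zfas1 (1083 kb, 7 tags) and Sdc4 (1535 kb, 4 tags). Over loops of every length, the region had 959 WT-labelled and 216 KO-labelled tags, in 101 and 110 loops. In the KO-labelled list, 47 of its loops lay beyond 500 kb, with at most 5 tags each.

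Esrrb, an orphan nuclear receptor of naive pluripotency, held 11 WT-labelled loops with 60 tags in its body at chr12:86463597-86513381, and no KO-labelled one. The loops ran to Eif2b2 (1268 kb, 5 tags), to Flvcr2, a haem and choline transporter gene (4 loops to the gene or its body, 675.4 to 742.4 kb), to Ttll5 and Erg28 (663.7 kb, 6 tags), and downstream to the bodies of Ism2 and Alkbh1. In the KO-labelled list the same region had 78 loops beyond 500 kb, and none of them had over 3 tags. It had 744 KO-labelled tags over all lengths, against 449 WT-labelled ones. The KO-labelled tags of this region thus lay in shorter loops or in long ones of 3 tags or fewer.

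The region of Zfp57, a zinc-finger protein that keeps imprints, and of the MHC class I-like gene H2-M5, at chr17:36968944-37004606, had 8 WT-labelled loops with 44 tags and no KO-labelled one. They crossed the MHC to Mdc1 and Tubb5 (1147 kb, 7 tags), Ppp1r10, Abcf1 and the body of Trim39. All lengths together gave 772 WT-labelled and 43 KO-labelled tags there. Pou5f1, the central pluripotency factor, lay in the same network with 1 loop of 4 tags over 1523 kb to Mog, and that network of 12 loops was WT-labelled only. The anchor with Pou5f1 also met the Zfp57 region directly in the WT-labelled list, over 1481 kb. That loop had 15 tags, too many for the rule, and is not counted here. Mcl1, an antiapoptotic gene of the Bcl2 family, had 8 WT-labelled loops with 36 tags, reaching Sf3b4, the histone genes H2ac18 and H4c14, the telomerase RNA gene Terc and a group of tRNA genes. Eif4e2, Nfam1, Snhg20 and the region of Mylpf and Zfp553 had 7 WT-labelled loops each, and the KO-labelled list had none at Eif4e2, Nfam1 or Snhg20.

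Histone and tRNA genes on chromosome 13 formed the busiest region of all. The block chr13:23490016-23587977 has 15 histone genes, H3c8 and H2bc8 among them, and many tRNA genes. It had 21 WT-labelled loops with 108 tags and 6 KO-labelled loops with 29 tags. A tRNA block at chr13:21854249-21885151 had 9 WT-labelled loops and no KO-labelled one, and in the KO-labelled list it had 18 tags in all. The histone block at chr13:22025414-22053000, with H2bc12 and H4c9, had 7 and 6. Among the fixed lists, 42 of 80 replication-dependent histone genes lay at anchors (52.5%), 16 of them at WT-labelled loops only, 26 at both and 0 at KO-labelled loops only. Of the tRNA, snRNA and snoRNA genes, 92 of 571 did (16.1%), 70 at WT-labelled loops only and 14 at KO-labelled loops only. Over all RefSeq genes 3.45% did. Genes in clusters share anchors, so these counts are not of independent loops.

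In the KO-labelled list the busiest region was Zmynd8, a reader of histone marks, at chr2:165848724-165897225, with 22 loops and 105 tags against 4 loops and 16 tags in the WT-labelled list. The loops reached both ways, to Elmo2 and the body of Slc35c2 on 1 side and to Prex1 (5 loops, 736.8 to 841.1 kb), Arfgef2 (921.7 kb, 6 tags) and Ube2v1 (1773 kb, 4 tags) on the other. The Prex1 body itself, chr2:166617496-166704364, had 15 KO-labelled loops and 1 WT-labelled one. Prex1 encodes an exchange factor that activates Rac. Its region had 2147 KO-labelled and 76 WT-labelled tags over all lengths. Sulf2, a sulfatase that edits heparan sulfate, had 11 and 3.

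Myh9, the heavy chain of nonmuscle myosin IIA, had 16 KO-labelled loops with 82 tags in its body at chr15:77787793-77825604, and none in the WT-labelled list. They ran to Rbfox2 (500.4 kb, 6 tags), Mpst and Tst (594.6 kb, 7 tags), Kctd17 (623.3 kb, 7 tags), Rac2 (763.7 kb, 5 tags) and Sox10 (1346 kb, 5 tags). The WT-labelled list had 30 loops beyond 500 kb there, with at most 2 tags. Septin9, a cytoskeletal GTPase gene, also had 16 KO-labelled and no WT-labelled loop at chr11:117302872-117351044, the one with most tags to Cygb and Prcd (670.2 kb, 8 tags). Col5a1, a chain of type V collagen, had 6 KO-labelled loops in its body at chr2:28002416-28040555, and the WT-labelled list had no loop of any kind at that place, against 134 KO-labelled loops with 640 tags. Its loops met the bodies of Vav2 and Sardh and the start of Brd3, and the network around it, with Notch1, Ralgds and Brd3, held 21 KO-labelled loops and no WT-labelled one. Notch1 alone had 4 of them, to Tubb4b (1270 kb), Ptgds (1029 kb), Lcn9 (673.8 kb) and Camsap1 (513.9 kb), with 4 tags each.

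In the WT-labelled list 31 loops had 9 tags, and the 8 longest of these are described. Of the 8, 3 joined tRNA genes on chromosome 13 to other tRNA genes or to histone genes over 1584 to 1889 kb, and a pair ended at Ncoa3. Others joined the bodies of Gsta3 and Rims1 (1198 kb) and Bcl6 with A230028O05Rik. In the KO-labelled list, the loops of 9 tags joined the body of Aldh1l1 to Fbln2 (643.5 kb), Gnas to chr2:174902627-174908496 (576.8 kb), and unnamed gene models on chromosomes 8 and 17. Loops of 8 tags there joined Evpl with Septin9 (1031 kb), Igfbp5 with 6030407O03Rik and Mir6351 (987.3 kb) and Txnrd3 with the Aldh1l1 body (907.1 kb). The longest WT-labelled loop joined Tet2, an enzyme that oxidises methylcytosine, to the body of Manba over 1995 kb with 5 tags. The longest KO-labelled loop joined Xrcc5 to Aamp and Tmbim1 over 1987 kb with 4 tags.

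The RNA-seq libraries held 29835774 to 37703866 counts on genes. Klf4 RNA went against the labels: it was 0 counts in both WT-labelled libraries and 2571 and 2538 counts in the KO-labelled ones, and directions below are stated between labels only. Whether the HiChIP lists carry the same labels as the RNA cannot be read from them. The neural progenitor marker Pax6 stood at 0.171 and 0 CPM (WT-labelled) and at 3.50 and 3.63 CPM (KO-labelled), Fabp7 at 0 and at most 0.817 CPM, Sox1 at 3.02 and 1.59 against 13.0 and 15.3 CPM, and Nes at 73.4 and 73.3 against 94.4 and 98.9 CPM. Pluripotency markers were abundant in all of these libraries labelled NPC, with Nanog at 1136 and 1144 against 406 and 407 CPM. Col1a2 rose from 0.0285 and 0.0361 to 149 and 144 CPM and Acta2 from at most 0.0285 to 152 and 148 CPM, both fibroblast or smooth muscle genes. The endoderm markers Sox17 (0.256 and 0.0361 against 10.6 and 12.2 CPM) and Foxa2 (0.342 and 0.108 against 9.60 and 9.26 CPM) rose, as did the mesoderm gene T (4.33 and 3.40 against 10.2 and 11.6 CPM). The neuronal gene Tubb3 fell from 140 and 142 to 22.2 and 20.3 CPM, while Map2 rose from 3.56 and 3.76 to 11.0 and 9.96 CPM. Other markers of these types were barely detected and had no test. In counts, the endoderm gene Afp had 0 and 0 (WT-labelled) against 0 and 1 (KO-labelled). The fibroblast gene Dcn had 0 and 0 against 12 and 2, and the neuronal gene Dcx 0 and 0 against 0 and 5. In bulk samples, fewer cells of a type and less RNA per cell cannot be told apart, and the part of cell mixture in the loops and RNA below was not tested.

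RNA of genes at WT-labelled loops was mostly lower in KO-labelled libraries, and that of genes at KO-labelled loops went both ways. RNA was not used to choose the loops. Over 17273 genes tested with edgeR, 37.2% were higher and 35.8% lower between the labels at an adjusted p below 0.05, 73.1% in all. Of 1721 genes with a start site or annotated end at an anchor, 1037 passed the count filter, 293 were below it and 391 were not in the count table. Of those 1037, 297 were higher and 519 lower. A gene can pass the filter through the group where it is high, so these are counts among genes measured and not among all genes at anchors. At WT-labelled loops only, 109 of 556 were higher (19.6%) and 332 lower (59.7%), with a median log2 fold change of -0.45 against 0.03 over all genes. At KO-labelled loops only, 176 of 406 were higher (43.3%) and 143 lower (35.2%), with a median of 0.11. Genes at loops of both lists had 12 higher and 44 lower of 75, with a median of -0.40.

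The split moved with the scaling. With library size alone in place of TMM, the median of all genes rose to 0.24, and 7820 genes were higher and 4787 lower. The WT-labelled genes then had 161 higher (29.0%) and 280 lower (50.4%), and the KO-labelled ones 206 higher (50.7%) and 110 lower (27.1%). Relative to all genes, the order of the groups stayed the same. Short loops of 4 to 9 tags gave a similar division: at those of the WT-labelled list only, 24.1% of tested genes were higher and 52.4% lower, and at those of the KO-labelled list only, 49.1% and 28.3%. The division is thus given for the long loops without being called particular to them. Genes at WT-labelled long loops were also abundant, with a median of 67.8 CPM in WT-labelled libraries against 11.8 CPM over all genes, and 22.8 CPM at KO-labelled ones.

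**Figure D4:**
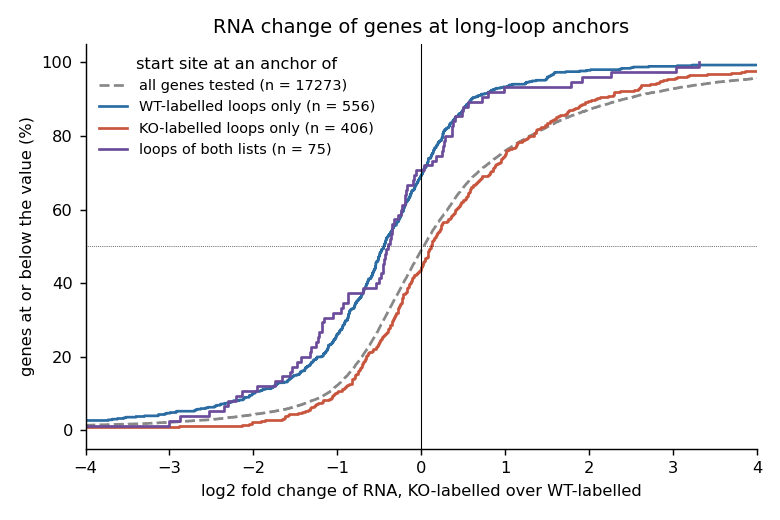
Cumulative percent of tested genes at or below each log2 fold change of RNA (KO-labelled over WT-labelled, TMM scaling), for all 17273 genes and for genes at long-loop anchors of either list or both. The curves of genes at WT-labelled loops and at loops of both lists lie to the left of all genes (medians -0.45 and -0.40), and that of genes at KO-labelled loops lies close to all genes (median 0.11).

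Some loops had a tested gene at both ends. Of 210 such WT-labelled loops, both ends were lower in 88, both higher in 13 and opposite in 49. Of 137 KO-labelled loops, both were lower in 33, both higher in 23 and opposite in 37. Of all tested genes at WT-labelled loops 59.6% were lower and 19.2% higher, and at KO-labelled loops 38.9% and 39.1%, so the counts are not read as ends moving together. Loops that share an anchor repeat its gene, and the counts carry no test. Ctsa, a lysosomal protease gene, and Ncoa3 were linked by 9 tags, with log2 fold changes of -0.72 and -1.66. Bcl6 fell by 1.16, and A230028O05Rik went from 36 and 22 counts to 1 and 0 in the same comparison. Hsp90aa1 and Eif5 were linked over 832.8 kb, at -0.46 and -0.32. Rnaset2a and Rnaset2b did not pass the test, with edgeR adjusted p of 0.456 and 0.0792, and reads of these near-identical genes could be split between them.

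RNA of the busiest genes differed in both directions. Ncoa3 stood at 425 and 420 CPM in WT-labelled libraries and at 133 and 134 CPM in KO-labelled ones. The groups did not overlap, and the log2 fold change was -1.66 (SE 0.0312, edgeR adjusted p = 8.2e-24). Esrrb stood at 931 and 925 CPM against 474 and 488 CPM, a log2 fold change of -0.95. Zfp57 stood at 500 and 506 against 255 and 241 CPM, also without overlap (-1.02). Eif4e2, a cap-binding protein gene, fell by 1.11 on the log2 scale and Mcl1 by 0.23. Of these 5 genes with WT-labelled loops, Mcl1 alone lost the call with library size alone, at -0.02.

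Among genes with KO-labelled loops, Myh9 stood at 286 and 292 CPM (WT-labelled) and at 613 and 591 CPM (KO-labelled), a log2 fold change of 1.06 (SE 0.0285, edgeR adjusted p = 1.1e-20). Prex1 rose from 10.9 and 12.0 to 46.3 and 45.2 CPM (2.00), Col5a1 from 10.7 and 10.5 to 78.5 and 78.0 CPM (2.89) and Notch1 from 45.9 and 42.3 to 87.9 and 88.4 CPM (1.00). Ralgds, an activator of Ral GTPases, rose by 0.88. Not every such gene rose. Zmynd8, with the most KO-labelled loops, stood at 325 and 332 against 259 and 255 CPM (-0.36), and Sulf2 at 326 and 313 against 197 and 199 CPM (-0.69). Septin9, listed as Sept9 in the count table, stood at 169 and 166 against 154 and 158 CPM (-0.10, edgeR adjusted p = 0.0131), and its direction turned to 0.107 with library size alone.

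Of the 10 largest rises among genes at anchors, 8 were at KO-labelled loops. Of the 139 genes at anchors called at least 2-fold higher, 98 lay at KO-labelled loops only and 36 at WT-labelled loops only. The 8 of 10 are thus not read as a result about the largest rises. Egr1, an immediate-early transcription factor, stood at 0.256 and 0.434 CPM (WT-labelled) and at 80.0 and 76.8 CPM (KO-labelled), a log2 fold change of 7.86 (SE 0.139, edgeR adjusted p = 2.53e-24). Its loop of 5 tags ran 693.9 kb to Snhg4 and Mir1949. Igfbp5, which binds insulin-like growth factors, rose from 0.199 and 0.434 to 39.9 and 34.4 CPM (6.92) and had 2 KO-labelled loops with 12 tags. Fosl2, an AP-1 subunit, rose from 0.199 and 0.831 to 35.3 and 35.6 CPM (6.20), with a loop of 7 tags over 557.9 kb. Ccnd2, cyclin D2, rose from 0.570 and 0.506 to 19.1 and 19.9 CPM (5.16), with 6 tags to Tspan9 over 943.4 kb. Fbln2, a glycoprotein of the extracellular matrix, rose from 0.285 and 0.361 to 10.3 and 10.8 CPM (5.03), with 20 tags in 3 loops to the Aldh1l1 body, Slc41a3 and Iqsec1. Arap3, Lrp8 and Ssbp2 rose by 3.17 to 4.13 at KO-labelled loops of 4 tags. The other two rises, Sgce (4.84), an imprinted sarcoglycan gene, and Platr22 (4.76), were at WT-labelled loops.

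Of 9 of the 10 largest falls, 8 were at WT-labelled loops. Of the 201 genes at anchors called at least 2-fold lower, 140 lay at WT-labelled loops only and 40 at KO-labelled loops only. The 8 of 9 are likewise not read as a result about the largest falls. H2-M5 stood at 156 and 160 CPM (WT-labelled) and at 8.64 and 8.81 CPM (KO-labelled), a log2 fold change of -4.18 (SE 0.0611, edgeR adjusted p = 6.53e-26), and shared its 8 loops with Zfp57. Mylpf, a myosin light chain of fast muscle, fell from 209 and 226 to 12.0 and 13.9 CPM (-4.06), with 7 loops and 35 tags to Tufm, Atxn2l, Nupr1 and others. Nkx1-2, a homeobox gene of the caudal epiblast, fell from 42.9 and 39.5 to 0.904 and 1.00 CPM (-5.43), with 1 loop of 6 tags. Tbx3, a T-box factor of naive pluripotency, fell from 286 and 291 to 25.1 and 29.6 CPM (-3.40), and its 3 loops with 16 tags reached places with no annotated gene over 1235, 1166 and 579.3 kb. She, Mobp, Epp13 and Zfp951 fell by 3.13 to 4.45. The other fall lay at a KO-labelled loop. Trpm1, a cation channel gene, fell from 58.3 and 60.8 to 1.17 and 1.28 CPM (-5.60), with 1 KO-labelled loop of 4 tags.

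**Figure D5:**
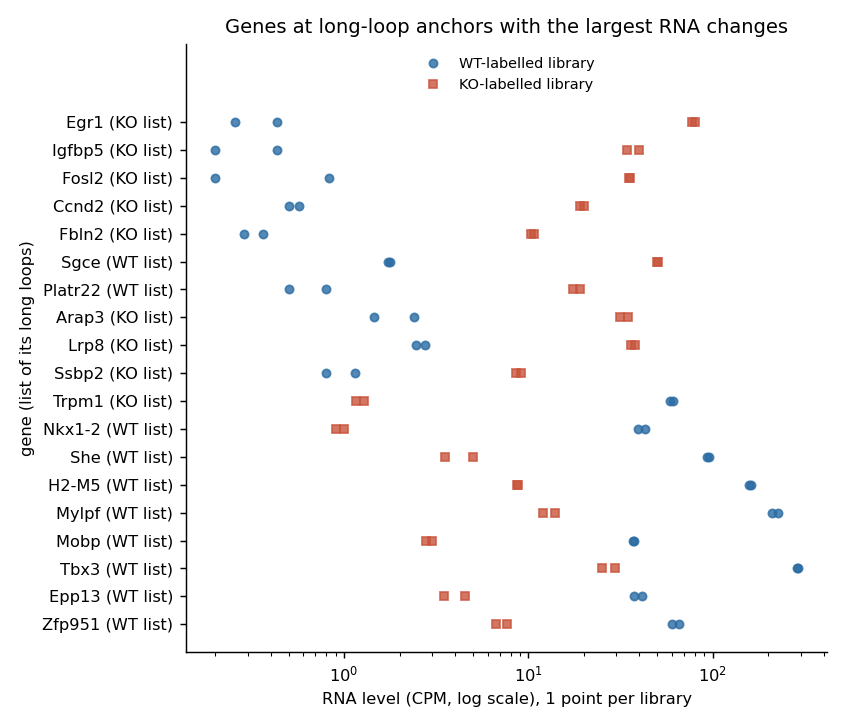
RNA level in CPM on a log scale for the 10 largest rises and 9 of the 10 largest falls among genes at long-loop anchors, 1 point per library (circles WT-labelled, squares KO-labelled); the list that holds each gene's loops is in brackets. Genes were chosen to have no overlap between the labels, so their separation is no finding; the values run from 0.256 and 0.434 against 80.0 and 76.8 CPM for Egr1 to 58.3 and 60.8 against 1.17 and 1.28 CPM for Trpm1.

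Pluripotency genes at anchors lay mostly at WT-labelled loops. Of 43 genes on that list, 16 lay at an anchor (37.2%, against 3.45% of all RefSeq genes), 13 at WT-labelled loops only, 2 at KO-labelled loops only and 1, Sox2, at both. The same split over the 1721 genes at anchors was 935, 659 and 127. The 3.45% also counts genes below the count filter. Of the 17273 genes that passed it, 1037 lay at an anchor, and all 16 were among these. Of the 16, 13 were lower, 3 higher and none uncalled in the KO-labelled libraries, with a median log2 fold change of -0.73. Of all tested genes at WT-labelled loops only, 59.7% were lower. Tet2 stood at 158 and 153 against 36.0 and 33.1 CPM, and its loops reached Npnt, Ube2d3 and the Manba body with 16 tags. Tdgf1, a co-receptor of Nodal, had 16 tags to the cell-cycle phosphatase gene Cdc25a (1079 and 1054 kb) and to Ptpn23 (544.9 kb), and fell by 0.51. Tfcp2l1, a naive pluripotency factor, stood at 1019 and 1018 against 135 and 135 CPM, with 1 loop of 4 tags. Sall4 (-1.06) and Stat3 (-0.77) had 2 WT-labelled loops each, with 11 tags. Zfp42 was linked to the Fat1 body over 1631 kb and fell by 1.04. Those that rose were Lefty1 (1.86) and Id1 (1.00) at KO-labelled loops and Lefty2 (0.34) at a WT-labelled one. Sox2 had 2 WT-labelled loops upstream, over 645.2 and 616.7 kb, and 1 KO-labelled loop of 6 tags downstream to Gm38512 over 747.2 kb, and fell by 0.23, or by 0.02 and without passing the test when library size alone was used.

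Neural progenitor genes at anchors were few in number, but their share was above the 3.45% of all RefSeq genes. All 4 passed the count filter, and of the 17273 genes that passed it, 1037 lay at an anchor. These shares carry no test. Of 42, 4 lay at anchors (9.52%): Hes1 and Otx1 at WT-labelled loops and Meis2 and Lhx2 at KO-labelled ones. Lhx2, a LIM homeobox gene of the forebrain and eye, stood at 0.0570 and 0.0723 against 1.08 and 0.865 CPM, and Otx1 at 0 and 0.289 against 1.08 and 1.45 CPM. Both rose, from levels near the detection limit, and Otx1 did not pass with DESeq2. Meis2 and Hes1 did not pass the test, at log2 fold changes of -0.27 and -0.03. No gene of the lists for polymerase II and Mediator subunits (46), mesoderm and muscle (21) or endoderm (19) lay at an anchor. Of 14 genes of cohesin and CTCF, Ctcf and Maz did, at 4 KO-labelled tags each.

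Other families showed mixed directions. Over all 1037 tested genes at anchors, 28.64% were higher and 50.05% lower. The counts below carry no test and are not read as results about the families. Of 26 Klf and Sp genes, 8 lay at anchors (30.8%, against 3.45% of all RefSeq genes), 5 of them at WT-labelled loops only. Of those tested, 2 were higher, 3 lower and 2 uncalled (3, 1 and 3 with library size alone). Klf9 had the larger rise, 0.67. Of 416 Zfp genes, 32 lay at anchors (7.69%), and 19 of them were lower, 5 higher and 8 uncalled (14, 8 and 10 with library size alone). Zfp64 (-1.24) and Zfp985 (-1.57) stood among the falls, and reads of close Zfp copies can be misplaced. Of 90 ribosomal protein genes, 19 lay at anchors (21.1%), with 10 higher and 6 lower, by 0.51 at most, and 15 higher and 1 lower with library size alone. Of the 42 histone genes, 22 passed the count filter, and 11 were lower, 1 higher and 10 uncalled, with a median of -1.29. With library size alone or DESeq2, 6 were lower and 1 higher. Their levels were low, as in H2bc12 at 0.655 and 1.01 against 0.0583 and 0.139 CPM, and H2bc8 at 0.655 and 0.506 against 0.233 and 0.251 CPM, which did not pass the test. Replication-dependent histone messages lack a poly(A) tail, the library type is not stated in the labels used here, and near-identical copies can share reads.

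The microRNA loci of the opening had these partners. The miR-290 cluster met Leng9 over 944.0 kb with 5 tags, and Rpl28 and the Shisa7 body over 1585 and 1613 kb with 4 each. Mir9-1 met the Syt11 body (538.7 kb, 4 tags), Ash1l and Dap3 (729.7 kb, 7 tags) and Krtcap2 and Trim46 (1025 kb, 4 tags). Mir9-2 had 1 loop of 6 tags over 607.3 kb and Mir9-3 1 of 4 tags over 651.3 kb. Mature microRNAs were not measured. The host transcript Mir9-3hg had 231 and 144 counts (WT-labelled) and 84 and 90 counts (KO-labelled), a log2 fold change of -1.25, and was thus lower under the label of the list that held its loop. Of the 59 microRNA genes at anchors, 32 lay at WT-labelled loops only, 25 at KO-labelled loops only and 2, Mir92b and Mir1949, at both. Mir219a-1 had 3 KO-labelled loops to Pbx2, Rnf5 and Atf6b, and Mir141 and Mir200c 1 WT-labelled loop over 719.9 kb.

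Genes at these anchors had promoters rich in CpG in both lists. For each gene, the promoter of 300 bases with the most CpG was taken, also where it lay away from the anchor. The median was 20 CpG at WT-labelled loops only (557 genes) and 19 at KO-labelled loops only (455 genes), against 8 over all 27025 genes. Genes with more annotated starts had more promoters searched, which was not corrected for. Motifs were searched on both strands as letters, and a gene counted when any of its promoters held the motif. GGGCGG, a GC box, was found for 56.4% and 59.1% of these genes, against 38.2% of all genes. GGGNGTGG, a form that KLF factors bind, was found for 24.2% and 31.6%, against 19.7%. These motifs can overlap each other and follow CpG content, which was not adjusted for. Among the histone genes at anchors, TATAAA was found for 60.5% and CCAAT for 86.8%, against 15.7% and 41.1% of all genes.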

How the data were processed

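RNA-seq counts per gene were deposited by the authors, 1 file per library, as raw counts. HISAT2 2.1.0, featureCounts 2.0.3, DESeq2 1.18.1, Bowtie2 2.4.4, MACS2 2.2.7.1 and HiC-Pro 2.11.1 and the build mm10 stand in the submitters' processing notes. Neither the loop caller nor the strand setting of counting is given in the sources used here, so reads of overlapping genes cannot be told apart. The deposited loop lists give both anchors, a tag count per loop and a false discovery rate (q-value), all the authors' values. The highest q-value of a loop used was 1.55e-07.

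Rows naming no gene (20.4% to 22.5% of each column) were left out. The test was edgeR's quasi-likelihood F test (version 4.0.16, R 4.3.3, robust, two-sided) after filterByExpr and TMM scaling, with Benjamini-Hochberg adjustment over 17273 genes. CPM values use TMM-scaled library sizes. The fit was tested on simulated data. Of 52535 symbols, 35101 matched RefSeq of GRCm38.p6 exactly and 715 through a synonym. A gene was at an anchor when its start site, or where no start was known either end, lay within 2500 bases. Alternatives were DESeq2 1.42.0, other scalings and filters, a replicate block, leaving out each library, and other loop settings. Each library counted as 1 replicate, so p-values measure the spread between these libraries. The labels do not say whether equal replicate numbers mark a shared culture or day, and the main fit used no pairing.

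Loops named were the 8 with most tags and 5 longest per list, those found as such in both lists, and the busiest regions. Genes named were Klf4, genes at those loops, the 10 largest rises and falls among called genes at anchors with at least 5 CPM and no overlap, members of fixed lists by tags, and genes at both ends of the loops with most tags. One of these falls and 1 loop pair found in both lists are not reported here. Partners and hosts, such as Notch1, Col5a1 and Mir9-3hg, and the printed sequences were chosen after values were seen. The members, lists and rules were chosen with earlier results of these data known.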

Additional observations from a re-analysis of the deposited data

How the results depend on the processing

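The WT-labelled list held 208 such loops at 1 Mb or more and 379 at 5 to 9 tags, and the KO-labelled list 67 and 212. At as many tags per list total (10 to 21 tags, chosen after seeing the data), the KO-labelled list held 21. The share of WT-labelled loops matched in the KO-labelled list was 20.19% at 1 Mb or more, 48.35% with anchors widened by 10 kb, 3.053% when 50% of each anchor had to be covered and 10.18% when the match needed 2 tags. For KO-labelled loops it was 35.82%, 31.57%, 8.02% and 9.044%, and 23.11% at 5 to 9 tags. The order of the lists thus turned at 1 Mb and under the coverage rule, and the cause was not tested. Leaving out the 3 largest networks (chosen after seeing the data) gave 25.53% and 16.87%. Genes at anchors numbered 121 higher and 376 lower of 631 when taken from WT-labelled loops alone, and 188 higher and 187 lower of 481 from KO-labelled loops alone, which are subsets with other shares (19.2% and 39.1% higher, against 28.6% for both lists). Other scalings, filters, windows and DESeq2 left the counts within 1.5 times, at 268 to 433 higher and 424 to 677 lower. Leaving out each library gave 274 to 287 higher and 498 to 507 lower among genes at anchors, and 5781 to 6235 and 5878 to 6038 among all genes.

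With the replicate number as a block, 293 genes at anchors were higher and 513 lower, and over all genes 6298 and 6112. Replicate differences correlated at 0.01532 between genotypes across 17273 genes. A value this low gives no sign of pairing, but it cannot exclude a shared culture or day. The block changed 1 call of 86 named genes, Rnaset2a, to 0.572 (log2, edgeR adjusted p = 4.4e-05).

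Of 774 values of named genes under alternatives, 735 kept side and direction, 26 lost the call and 9 gained it. With library size alone, 4 turned: Foxd3 to 0.006, Zfp704 to 0.028, Rpl19 to 0.113 and Sept9 to 0.107 on the log2 scale. The lists are 1 per genotype, so no loop difference has a replicate check, and their unequal tag totals cannot be told apart from genotype. Anchor sequences were not examined beyond RefSeq promoters and microRNAs. Copies of near-identical genes limit loops and RNA at histone, Zfp and Rnaset2 genes.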

Other observations

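Other WT-labelled hubs lay at genes of varied function. Zfp704, a zinc-finger gene, had 6 WT-labelled loops with 36 tags from a single anchor, to Stmn2 over 1096 kb, to Tpd52 over 601.0 kb and to Fabp12 and Impa1 on the other side, and Stmn2, a neuronal tubulin-binding protein, stood at 365 and 348 CPM in WT-labelled against 165 and 164 CPM in KO-labelled libraries. Loxl1, a collagen cross-linking enzyme and the only fibroblast or matrix gene of 15 at an anchor, had 2 WT-labelled loops with 12 tags, while its RNA rose from 1.51 and 1.70 to 8.14 and 10.2 CPM. Foxd3, a factor of the epiblast and neural crest, had 2 WT-labelled loops of 5 tags over 810.0 and 1731 kb.

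Several KO-labelled networks had no WT-labelled loop. The network at chr19:5798260-7221622 held 13 loops, among them Malat1, an abundant nuclear RNA, linked to Men1 over 526.9 kb with 5 tags. The one at chr6:88933213-91386823 held 13 around Fbln2 and Aldh1l1, and the one at chr14:24858999-25770721 held 11. At chr5:113126120-113161605, 2900026A02Rik had 11 KO-labelled loops with 49 tags. The reverse held at chr1:84283354-89029756, where 14 WT-labelled loops around Eif4e2 had no KO-labelled one.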
